A study of Homo sapiens with 7 samples.

Results

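The proteasome genes measured here were 46 of 26364 gene symbols in an RNA sequencing study of U937, a human monocytic leukaemia line. They were chosen by symbol: PSMA, PSMB, PSMC, PSMD, PSME, PSMF or PSMG followed by a number, with at least 15 counts summed over 7 libraries. The name alone matched 48 symbols, and the other two, PSMA8 of the testis proteasome and PSMB11 of the thymus proteasome, had 0 counts in all 7 libraries, against a floor of 3 counts. That floor is 0.202 to 0.236 CPM, the unit used throughout for counts relative to each library's total. MT_mock was parental U937 MT (3 libraries). B412_mock was U937 B412, a derivative in which zinc switches on the leukaemic fusion protein PLZF/RARA (2 libraries). B412_GSK126 was B412 given GSK126 at 2.5 µM, an inhibitor of the histone methyltransferase EZH2 (2 libraries). All 7 libraries, parental ones included, had 0.1 mM ZnSO4. Per the labels' protocols both B412 groups had zinc for 24 h, and B412_GSK126 then had GSK126 with zinc for 96 h. No zinc time was recorded here for MT_mock, nor any time after the 24 h for B412_mock. The length of zinc exposure may therefore differ between the groups. B412 without zinc was not analysed here, so the fusion and any other difference between the lines cannot be told apart, and the labels do not say whether B412 is 1 clone. Whether replicates were grown as separate cultures is not stated either. The p-values thus reflect the spread among these libraries alone, and that spread may be technical.

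The proteasome is the barrel-shaped protease that degrades ubiquitin-tagged proteins in the cytosol and nucleus. Its 20S core stacks rings of alpha (PSMA) and beta (PSMB) subunits, and the 19S cap unfolds substrates with a ring of ATPases (PSMC) and recognises and strips ubiquitin with non-ATPase subunits (PSMD). PSMB5, PSMB6 and PSMB7 are the constitutive catalytic subunits. PSMB8, PSMB9 and PSMB10 replace PSMB5, PSMB6 and PSMB7 in the immunoproteasome, which is induced by interferon-gamma, is common in leukocytes and makes peptides for MHC class I. PSME genes encode alternative caps, PSMF1 encodes the regulator PI31, first described as an inhibitor of the core, and PSMG genes encode chaperones that assemble the core.

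The promoters of 5 members on which the comparisons below turn are shown first, from RefSeq on GRCh38.p14, each as the 250 bases before and 50 bases after the annotated start, 5′ to 3′ on the gene's strand. PSMB10 was taken from the immunoproteasome genes, PSMB5 from the constitutive catalytic genes and PSME2 from the interferon-inducible cap. PSMF1 and PSME4 were the members with the lowest p-values between the lines. The windows are chr16:67936801-67937100 (minus strand) for PSMB10, chr14:23035171-23035470 (minus) for PSMB5, chr14:24146561-24146860 (minus) for PSME2, chr20:1113013-1113312 (plus) for PSMF1 and chr2:53970944-53971243 (minus) for PSME4. Capitals mark matches to the interferon-stimulated response element (GAAA, any 2 bases, GAAA) in PSMB10 and PSME2, and to the antioxidant response element core, TGACNNNGC, in PSME2 and, on the opposite strand, in PSME4.
PSMB10: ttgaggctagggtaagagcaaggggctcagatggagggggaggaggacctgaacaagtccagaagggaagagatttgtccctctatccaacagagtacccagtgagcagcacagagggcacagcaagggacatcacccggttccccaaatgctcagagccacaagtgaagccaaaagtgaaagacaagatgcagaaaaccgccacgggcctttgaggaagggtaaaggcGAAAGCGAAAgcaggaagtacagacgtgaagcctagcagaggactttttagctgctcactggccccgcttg
PSMB5: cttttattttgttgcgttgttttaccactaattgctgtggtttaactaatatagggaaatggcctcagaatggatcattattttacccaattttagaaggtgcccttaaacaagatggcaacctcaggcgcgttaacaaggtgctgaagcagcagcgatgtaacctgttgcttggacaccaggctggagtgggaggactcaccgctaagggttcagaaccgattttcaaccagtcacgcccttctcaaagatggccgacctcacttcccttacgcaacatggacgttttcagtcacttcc
PSME2: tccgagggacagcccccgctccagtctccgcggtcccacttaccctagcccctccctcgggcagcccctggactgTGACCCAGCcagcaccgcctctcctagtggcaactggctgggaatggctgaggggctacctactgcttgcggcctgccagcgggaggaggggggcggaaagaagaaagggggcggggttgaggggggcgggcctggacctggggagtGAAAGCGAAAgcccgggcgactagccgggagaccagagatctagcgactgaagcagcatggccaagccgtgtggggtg
PSMF1: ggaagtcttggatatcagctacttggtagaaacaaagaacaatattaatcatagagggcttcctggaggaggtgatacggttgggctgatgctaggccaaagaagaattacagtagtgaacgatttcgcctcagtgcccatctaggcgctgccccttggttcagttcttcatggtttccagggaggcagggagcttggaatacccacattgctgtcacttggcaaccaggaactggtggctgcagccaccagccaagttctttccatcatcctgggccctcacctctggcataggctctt
PSME4: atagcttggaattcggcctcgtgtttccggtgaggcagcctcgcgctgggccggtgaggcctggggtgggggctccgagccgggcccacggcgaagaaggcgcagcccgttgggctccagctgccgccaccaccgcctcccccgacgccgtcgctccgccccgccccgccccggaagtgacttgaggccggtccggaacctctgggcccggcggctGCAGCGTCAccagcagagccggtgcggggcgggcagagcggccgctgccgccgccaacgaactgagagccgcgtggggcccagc

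The promoter table held 40 of the 46 members, and both strands were searched for 3 motifs. It lacked PSMA7, PSMB1, PSMB6, PSMB7, PSMD4 and PSMG3, so PSMB5 was the only constitutive catalytic gene searched. The antioxidant response element core is bound by the NFE2L1 and NFE2L2 transcription factors with small MAF proteins. It was in 13 of the 40 (32.5%), against 13.3% of 35116 promoters of the same length. Those were all promoters held, while each member was taken once, and they were not matched to the members in base composition. The interferon-stimulated response element was in 6 (15%), against 3.57% of all: PSMA4, PSMB4, PSMB10, PSME1, PSME2 and PSMG4. Its match was the same run, GAAAGCGAAA, in PSMB10 at -21 to -12 from the start, in PSME2 at -28 to -19 and in PSMG4 at -33 to -24. PSME1 held that run on the opposite strand, as TTTCGCTTTC, at 5 to 14 from the start. The gamma-activated site, TTCNNNGAA, which reads alike on both strands, was in 4 (10%), against 7.66% of all. No match to one motif overlapped a match to another in these windows, and a match is a run of letters, not a measured binding site. The windows of PSMB5, PSMB8 and PSMF1 held none of the 3 motifs, and PSMB9 held the antioxidant core alone. Of the 3 immunoproteasome genes only PSMB10 held the interferon-stimulated response element, so its window does not stand for the class.

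The largest difference in the proteasome genes cut across the groups. The first principal component of log2 CPM over 13521 tested genes, with 65.7% of the variance, parted the libraries into set 1 (MT_mock replicates 1 and 2 and replicate 1 of each B412 group) and set 2 (MT_mock replicate 3 and replicate 2 of each B412 group). No label names a batch. The 46 genes took 1.01% to 1.20% of all counts in the 4 libraries of set 1 and 0.653% to 0.728% in the 3 of set 2, with library totals of 12736244 to 14848130 counts. The 2 ranges did not overlap, and each set held all 3 groups. In a fit with the group and the set as terms, 35 of the 46 were lower in set 2, with a median log2 difference of -0.61, against 6623 of 13521 tested genes lower and a median of 0.04. These values carry no test, because the sets were taken from the same counts.

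The members that were lowest in set 2 relative to set 1 were a chaperone, core subunits and a 19S subunit. PSMG3, a core assembly chaperone, differed by -2.34 on the log2 scale, the structural beta subunit PSMB3 by -1.84, the scaffold subunit PSMD1 by -1.73 and the alpha subunit PSMA4 by -1.53. Members that were higher in set 2 included PSMD10 (1.31) and PSMD5 (0.99), which are chaperones of the 19S base, PSMF1 (0.92) and the cap genes PSME3 (0.63) and PSME4 (0.58). Across the 46 genes the set difference from the fit had a Pearson correlation of 0.288 with exon length and -0.371 with GC content (Spearman 0.236 and -0.315). For 12639 tested genes the plain difference of mean log2 CPM between the sets, with no group term, was used instead. Its correlation with exon length was 0.196 (Spearman 0.279). These are correlations across genes, which are not replicates and share their libraries. Each comparison below is therefore given from 2 edgeR fits, without and with the library-set term. P-values with the term may be too small, since the sets came from these counts. Differences within a set rest on 1 library of each B412 group, and in set 2 on 1 MT_mock library. They have no replicate spread of their own.

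**Figure D1:**
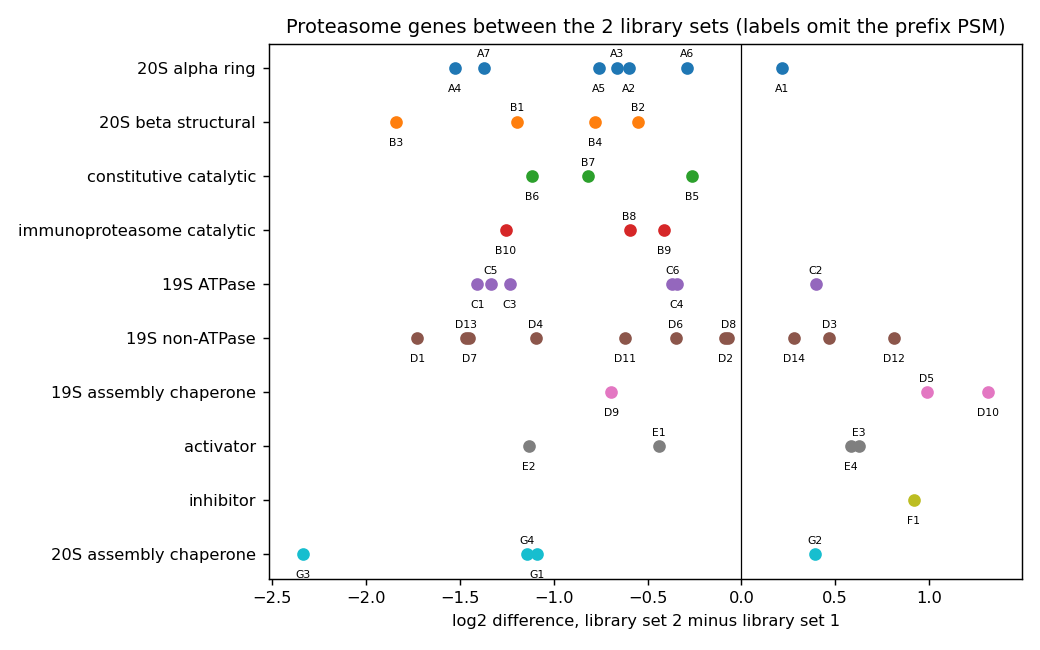
Log2 difference of set 2 against set 1 for each of the 46 proteasome genes (points, grouped by role), from the fit with group and library set. Of the 46 points, 35 lie below 0, and PSMG3 at -2.34 is the lowest.

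Per kilobase of annotated exon, the structural beta subunits PSMB3, PSMB1 and PSMB4 were the most abundant members. PSMB3 averaged 748 CPM per kilobase over the 7 libraries, PSMB1 608 and PSMB4 290, whereas the fourth structural beta subunit, PSMB2, averaged 74.7. That order depends on the annotated exon length, 4843 bases for PSMB2 and 964 for PSMB4. In plain CPM PSMB2 was above PSMB4 in MT_mock, with means of 383 and 309. The length expressed in these cells was not measured. The median of the 7 alpha ring genes was 119 CPM per kilobase. The immunoproteasome genes lay close together on this scale, at 175 for PSMB8, 163 for PSMB10 and 159 for PSMB9, whereas the constitutive genes spread from 53.6 for PSMB5 to 236 for PSMB6 and 251 for PSMB7. In MT_mock the level per kilobase was 56.9 ± 9.01 (SD, n = 3) for PSMB5, 250 ± 96.9 for PSMB6 and 289 ± 74.4 for PSMB7, against 163 ± 33.1 for PSMB8, 159 ± 16.6 for PSMB9 and 172 ± 61.1 for PSMB10. PSMB5 was thus below the other 5 catalytic genes beyond its spread, while the neighbours PSMB8, PSMB9 and PSMB10 did not differ beyond theirs. The 19S ATPases ran from 1.04 for PSMC1 to 196 for PSMC5. The floor of the family, PSMC1, had 31 to 121 counts per library, against 389 to 8493 for the other ATPases. Of its 50-base words, 28.4% also occur in annotated pseudogenes, and 82.1% of its exon bases are overlapped by NRDE2 on the opposite strand, so its counts are uncertain. In all, 8 members shared at least 20% of their 50-base words with another annotated gene.

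The first question, which proteasome genes differ between the PLZF/RARA line and parental U937, had a single called gene, PSMF1. PSMF1 encodes PI31, which binds the 20S core. It had 178.7, 173.4 and 355.3 CPM in MT_mock replicates 1 to 3, and 111.3 and 238.4 in B412_mock replicates 1 and 2. Each B412_mock library was below the MT_mock libraries of its own set, but the groups overlapped, since B412_mock replicate 2 lay above MT_mock replicates 1 and 2. With the library-set term PSMF1 fell by 0.65 ± 0.14 (SE) on the log2 scale in B412_mock, 1.57-fold, with a 95% interval of -0.96 to -0.34 (edgeR quasi-likelihood test, adjusted p = 0.0350). Within the sets the difference was -0.64 in set 1 and -0.65 in set 2. Without the term it was -0.49 and did not pass (edgeR adjusted p = 1). The call was lost when any one of MT_mock replicate 2, MT_mock replicate 3, B412_mock replicate 1 or B412_mock replicate 2 was left out (edgeR adjusted p = 0.0980, 0.0782, 0.695 and 0.457), while the log2 difference stayed between -0.68 and -0.62 over the 7 such fits. Over all 14 alternatives its adjusted p ran from 0.0014 to 0.820.

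PSME4, which encodes the large nuclear cap PA200, had the next lowest p and did not pass. Its levels were 112.2, 120.9 and 230.8 CPM in MT_mock and 81.5 and 117.5 CPM in B412_mock. Both B412_mock libraries were below the MT_mock libraries of their own set, and B412_mock replicate 2 lay above MT_mock replicate 1. The difference with the term was -0.73 ± 0.17 (SE) on the log2 scale, with a 95% interval of -1.10 to -0.35 (edgeR adjusted p = 0.0531), and it was -0.49 within set 1 and -1.05 within set 2. DESeq2 called it (adjusted p = 0.00883). It was called in 6 of 14 alternatives, with adjusted p from 0.0033 to 0.678.

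**Figure D2:**
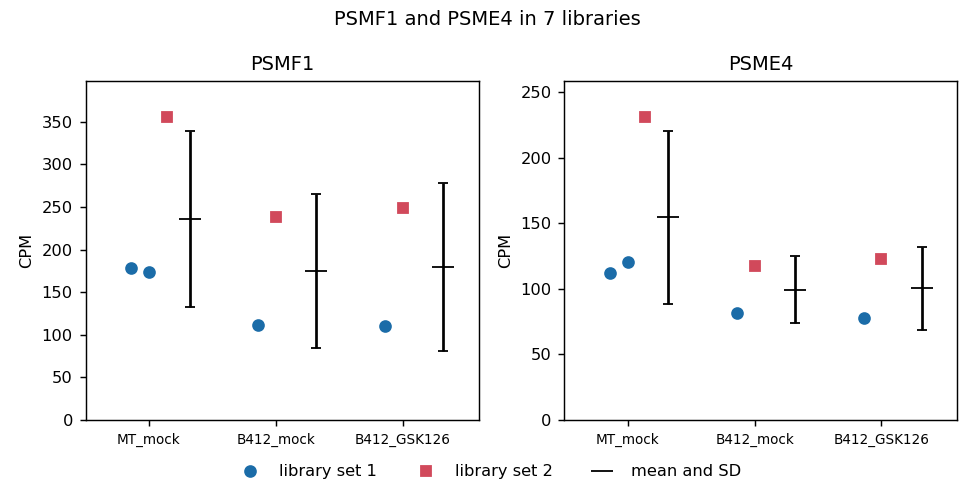
CPM of PSMF1 and PSME4 in each library (circles, set 1; squares, set 2), with the group mean and SD beside them. In both genes the libraries of set 2 are the highest of their group, and each B412_mock library lies below the MT_mock libraries of its own set.

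Over the whole family, 1 of 46 members (2.17%) passed with the term, and it was lower, beside 2.35% of all genes tested and 1.5% for lower genes alone. Without the term 0 members passed, as did 0% of all genes. At an unadjusted p under 0.05 the counts were 5 members (10.9%) against 14.6% of all genes with the term, and 0 members against 2.54% without it. Without the term DESeq2 and limma-voom also called 0 members, beside 95 and 0 of all genes. The members' share of calls was thus near or under that of all genes. The signs were uneven: with the term 36 of 46 estimates (78.3%) were negative, against 51.1% of all genes, with a median log2 difference of -0.13 (1.10-fold) against -0.01. Without the term 40 were negative and the median was -0.23, but that median ranged from -0.57 to 0.02 when single libraries were left out, the highest without B412_mock replicate 2. Within the sets 26 members (56.5%) were lower in B412_mock in both and 9 (19.6%) higher in both, beside 31.9% and 31.8% of all genes. With the term the 46 log2 differences lay between -0.73 for PSME4 and 0.32 for PSME1. Across the 46 genes this difference had a Pearson correlation of -0.366 with exon length (Spearman -0.270), and the part of length in it was not tested. In bulk RNA, fewer cells with a transcript and less of it per cell cannot be told apart.

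By role, the core showed no called gene in this comparison. All 7 alpha ring estimates with the term were negative, from -0.26 for PSMA6 to -0.01 for PSMA4, and so were all 4 structural beta estimates, from -0.24 for PSMB4 to -0.10 for PSMB2. Among the core chaperones PSMG1 to PSMG4, which pair and align the alpha subunits, PSMG4 had -0.28 and PSMG3 0.14. In the 19S cap, 5 of 6 ATPase and 11 of 11 non-ATPase estimates were negative, and none passed. The ATPase PSMC2 had the lowest p there, at -0.56 ± 0.18 (SE; edgeR adjusted p = 0.14), with 98.1, 122.0 and 141.9 CPM in MT_mock and 64.8 and 118.1 in B412_mock. It was lower within both sets, and the groups overlapped. Of the non-ATPase subunits, PSMD3 had -0.43 and PSMD13 -0.41 (edgeR adjusted p = 0.267 and 0.294), and PSMD8 was nearest 0. The ATPase PSMC3 had 0.12. The 19S base chaperones PSMD5, PSMD9 and PSMD10 had -0.20, 0.09 and 0.02. Without the term the signs of PSMC3 (-0.07), PSMG3 (-0.25), PSMD5 (0.02) and PSMD9 (-0.04) turned.

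The interferon-inducible cap subunits PSME1 and PSME2, which form the PA28 ring, had positive estimates that did not pass. PSME1 had 249.6, 262.4 and 255.9 CPM in MT_mock and 363.1 and 272.7 in B412_mock, so both B412_mock libraries were above all 3 MT_mock libraries. Its difference with the term was 0.32 ± 0.16 (SE) on the log2 scale, with a 95% interval from -0.03 to 0.67 (edgeR adjusted p = 0.395). It was 0.53 within set 1 and 0.02 within set 2. PSME2 had 165.3, 177.4 and 88.1 CPM in MT_mock and 203.4 and 95.02 in B412_mock, with overlapping groups and a difference of 0.16 (edgeR adjusted p = 0.674). PSME3, the nuclear PA28 gamma, was at 0.00, with -0.18 in set 1 and 0.50 in set 2.

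**Figure D3:**
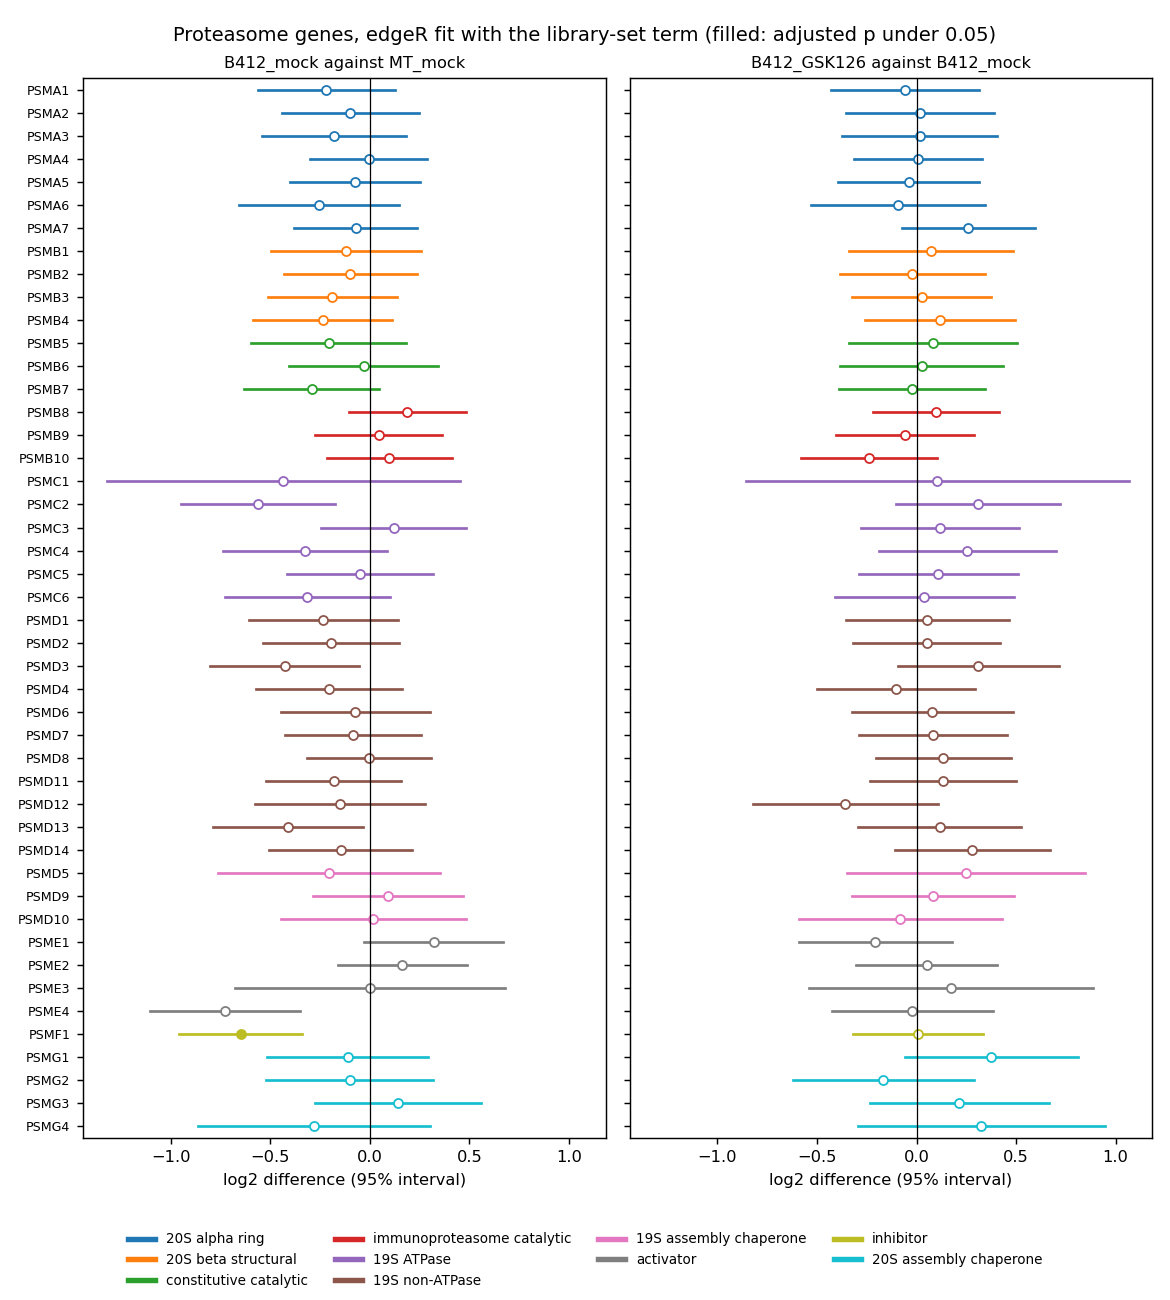
Log2 difference (points) and 95% interval (bars) of the 46 genes when library set is a term of the edgeR fit, for B412_mock against MT_mock (left) and B412_GSK126 against B412_mock (right), coloured by role. PSMF1 on the left, at -0.65, is the filled point, and no point on the right is filled.

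The catalytic subunits were compared next, constitutive against immunoproteasome. PSMB8 had 292.1, 270.2 and 194.4 CPM in MT_mock, 308.0 and 242.1 in B412_mock and 334.5 and 261.3 in B412_GSK126. Its replacement partner PSMB5, the chymotrypsin-like subunit of the standard core, had 74.1, 98.4 and 77.4, then 72.2 and 72.4, then 79.8 and 75.0 CPM. Within each set PSMB8 was higher in B412_mock than in MT_mock (by 0.15 and 0.24 on the log2 scale) and PSMB5 lower (-0.22 and -0.17). Both B412_mock libraries of PSMB5 lay below all 3 MT_mock libraries, and the PSMB8 groups overlapped. With the term the differences were 0.19 ± 0.13 (SE) for PSMB8 and -0.21 ± 0.18 for PSMB5, and neither passed (edgeR adjusted p = 0.579 and 0.653). Reads of PSMB8 and its antisense gene PSMB8-AS1 were not separated by strand, as far as the protocol says. The antisense gene had 432 to 822 counts per library, 12.5% to 21.1% of the PSMB8 count. On the same strand, PSMB8-AS1 overlaps 15.1% of the annotated exon bases of PSMB9, and AC040162.1 overlaps 30.7% of those of PSMB10. PSMB5, PSMB6 and PSMB7 had 0% overlapped on either strand. The part of these overlaps in the immunoproteasome share and the pair ratios below was not tested.

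In the remaining pairs the library sets stood further apart than the groups. PSMB10 had 243.0, 261.1 and 124.1 CPM in MT_mock, 274.3 and 132.1 in B412_mock and 246.7 and 107.9 in B412_GSK126. PSMB7, the trypsin-like subunit it replaces, had 281.6, 356.6 and 210.8, then 275.1 and 165.5, then 264.1 and 171.2. For both genes the libraries of set 2 were the lowest of every group, and the groups overlapped. The differences between the lines with the term were 0.10 for PSMB10 and -0.29 for PSMB7 (edgeR adjusted p = 0.820 and 0.431). PSMB9 had 151.0, 159.4 and 129.8 CPM in MT_mock, 155.1 and 141.9 in B412_mock and 161.1 and 128.5 in B412_GSK126, a narrower range than its partner PSMB6, the caspase-like subunit, at 218.4, 302.0 and 133.0, then 269.2 and 126.6, then 248.1 and 146.0. Neither passed between the lines, with 0.04 for PSMB9 and -0.03 for PSMB6 (edgeR adjusted p = 0.932 and 0.961). Without the term PSMB8 had 0.09, PSMB9 -0.03 and PSMB10 -0.07, so the sign of PSMB9 and PSMB10 turned, while PSMB5, PSMB6 and PSMB7 stayed negative at -0.25, -0.16 and -0.39.

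**Figure D4:**
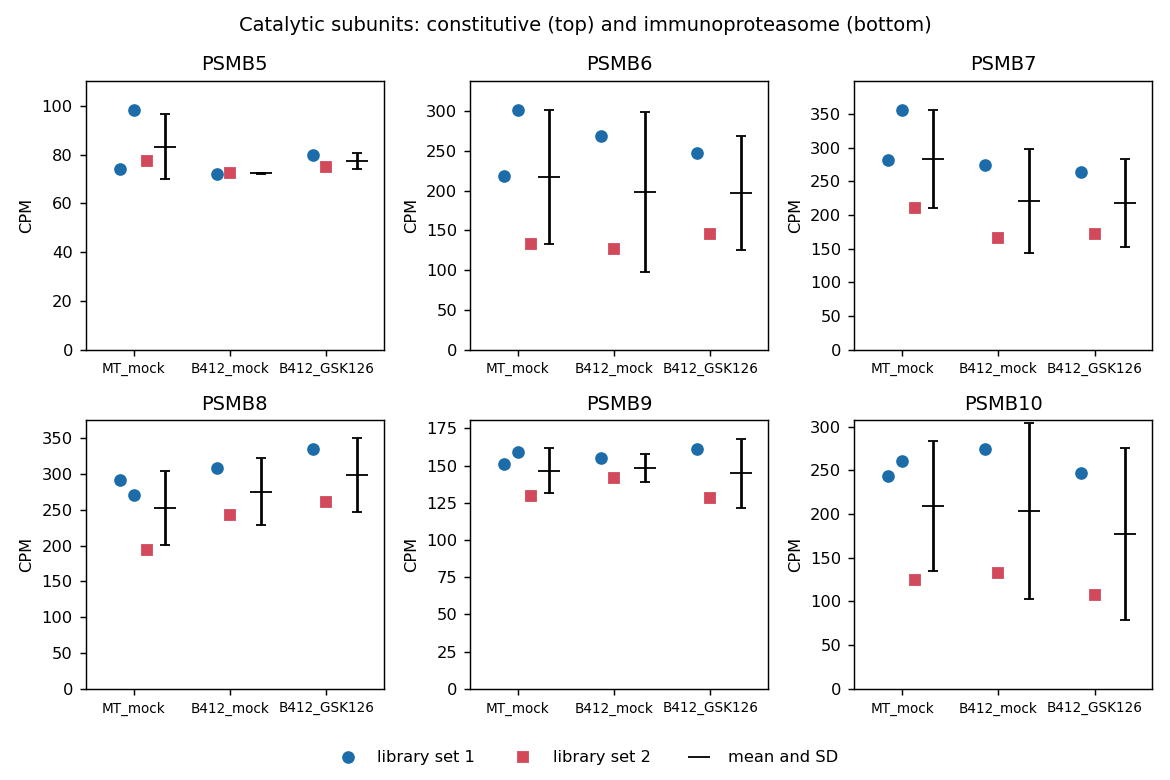
CPM of the constitutive catalytic genes (top row) and their immunoproteasome counterparts (bottom row) in each library (circles, set 1; squares, set 2), with the group mean and SD. PSMB10 and PSMB6 are lower in every set 2 library than in any set 1 library, and the 3 groups overlap in both.

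The immunoproteasome share, the counts of PSMB8, PSMB9 and PSMB10 as a percent of the counts of all 6 catalytic genes, does not depend on how libraries are scaled. It was 54.4%, 47.7% and 51.6% in MT_mock, 54.5% and 58.6% in B412_mock, and 55.6% and 55.9% in B412_GSK126. All 4 B412 libraries were at or above the highest MT_mock library, but the exact binomial 95% intervals, which cover counting error only, were 53.7% to 55.2% for both MT_mock replicate 1 and B412_mock replicate 1. The group means were 51.2% ± 3.38 (SD, n = 3), 56.5% ± 2.92 (SD, n = 2) and 55.8% ± 0.205 (SD, n = 2). B412_mock exceeded MT_mock by 3.39 percentage points within set 1 and 7.05 within set 2, and leaving out single libraries gave 3.23 to 7.37, against a range of 47.7% to 54.4% among the MT_mock libraries themselves. The share was computed from members chosen with results known and carries no p-value.

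Each immunoproteasome gene was also set against the subunit it replaces. The PSMB8 to PSMB5 count ratio was 3.94, 2.75 and 2.51 in MT_mock, 4.27 and 3.34 in B412_mock and 4.19 and 3.48 in B412_GSK126. It was higher in B412_mock within both sets, by 0.38 and 0.41 on the log2 scale, and the groups overlapped. The PSMB10 to PSMB7 ratio was likewise higher within both sets, by 0.33 and 0.44, from a mean of 0.728 ± 0.137 (SD, n = 3) in MT_mock to 0.898 ± 0.141 (SD, n = 2) in B412_mock. Over all libraries these differences were 0.33 and 0.31. They were 0.15 and 0.15 without B412_mock replicate 1, 0.20 and 0.17 without MT_mock replicate 3, and 0.51 and 0.47 without B412_mock replicate 2. Without MT_mock replicate 1 the PSMB8 to PSMB5 difference was 0.52. For PSMB9 to PSMB6 the sets differed in direction, with -0.07 in set 1 and 0.20 in set 2.

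**Figure D5:**
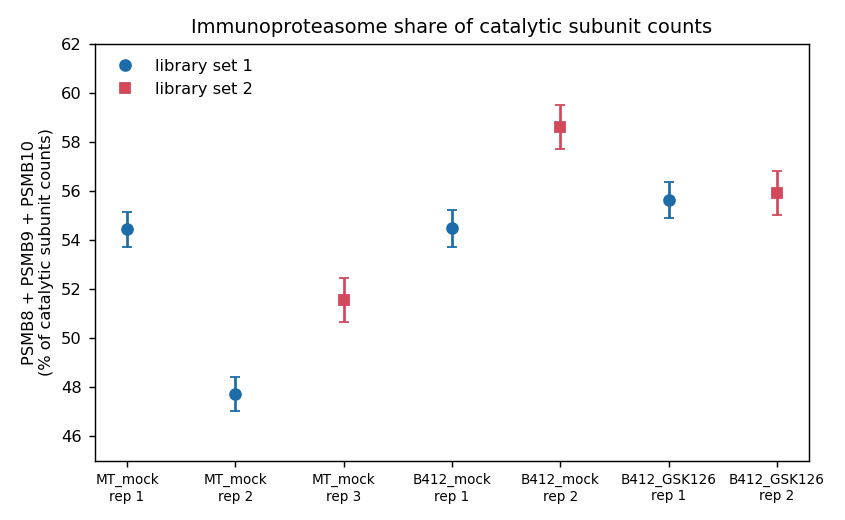
Immunoproteasome share of catalytic subunit counts in each library, as points with exact binomial 95% intervals for counting error (circles, set 1; squares, set 2). The axis starts at 45%. MT_mock spans 47.7% to 54.4% and the 4 B412 libraries 54.5% to 58.6%.

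The other comparison asked what GSK126 changed in B412 cells. It shares the B412_mock libraries with the comparison of the lines. No proteasome gene passed: 0 of 46 were called with or without the library-set term, as were 0% of all 13521 genes (edgeR). At an unadjusted p under 0.05 there were also 0 members in either fit, against 3.43% of all genes with the term and 0.237% without. DESeq2 and limma-voom called 0 members in either fit. Over all genes DESeq2 called 4 with the term and 0 without, and limma-voom 0 in both. With the term 33 of 46 estimates (71.7%) were positive, against 51.8% of all genes, and without it 26 of 46 (56.5%) against 48.3%. With the term they had a median log2 difference of 0.06 against 0.01 over all genes. In 26 of 46 members the signs were opposite in set 1 and set 2, against a smaller share of all genes, 5855 of 13521. In both sets 13 members (28.3%) were higher and 7 (15.2%) lower, beside 28.3% and 28.4% of all genes.

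The estimates ran from -0.36 for the lid subunit PSMD12 to 0.38 for the core chaperone PSMG1. PSMG1 had 90.5 and 46.5 CPM in B412_mock and 100.1 and 71.2 in B412_GSK126. It was higher within both sets, with an unadjusted p of 0.0848 in edgeR (adjusted p = 1). PSMD12 had 24.9 and 47.8 CPM in B412_mock and 17.6 and 41.6 in B412_GSK126, lower within both sets, and did not pass (edgeR adjusted p = 1). For both genes the groups overlapped, and the libraries of one group differed more between the sets than the groups differed within a set. All 6 ATPase estimates were positive with the term (5 without it), up to 0.31 for PSMC2, and PSMD3 and PSMA7 had 0.31 and 0.26. Of the chaperones PSMG4 had 0.33, PSMD5 0.25 and PSMG2 -0.17, and the cap subunit PSME1 had -0.21. None passed.

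For the genes with the lowest p between the lines, the estimates with GSK126 were close to 0. PSMF1 had 109.8 and 249.2 CPM with GSK126, a difference of 0.01 from B412_mock with a 95% interval of -0.32 to 0.33. PSME4 had 78.0 and 122.7 CPM, a difference of -0.02 with an interval of -0.43 to 0.39. Among the immunoproteasome genes the differences were 0.10 for PSMB8 (interval -0.22 to 0.42), -0.06 for PSMB9 (-0.41 to 0.29) and -0.24 for PSMB10 (-0.58 to 0.10), and the constitutive PSMB5, PSMB6 and PSMB7 had 0.08, 0.03 and -0.02. The widest reach of the immunoproteasome intervals was -0.58, and a p above the threshold does not show equal levels. The immunoproteasome share differed by 1.17 percentage points in set 1 and -2.68 in set 2.

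Of the wider pathway, 36 partner and regulator genes were tested. Between the lines with the term 1 was lower and 0 higher, beside 1.5% and 0.851% of all genes, and 24 of 36 estimates were negative, with a median of -0.14. Without the term 0 passed, 19 of 36 were negative and the median was -0.01, and with GSK126 0 passed in either fit. The lower gene was AKIRIN2, which carries assembled proteasomes into the nucleus. Its counts were 744, 763 and 1777 for MT_mock, 314 and 1040 for B412_mock and 508 and 1014 for B412_GSK126. As for PSMF1, B412_mock was below the MT_mock libraries of its own set in both sets while the groups overlapped. AKIRIN2 fell by 0.92 ± 0.19 (SE) on the log2 scale (edgeR adjusted p = 0.0287), a call that was lost without any one of MT_mock replicates 2 and 3 and B412_mock replicates 1 and 2 (edgeR adjusted p = 0.0916, 0.0879, 0.812 and 0.182). Over 14 alternatives its adjusted p ran from 0.000624 to 0.812. NFE2L1, the transcription factor that raises proteasome genes when the proteasome is impaired, had -0.72 ± 0.19 (SE) and did not pass (edgeR adjusted p = 0.0873). It had -0.49 within set 1 and -0.98 within set 2, and was called in 3 of 14 alternatives. POMP, the maturation chaperone of the core, had -0.18.

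None of 11 genes of the interferon-gamma route passed in either comparison. Between the lines with the term the interferon regulatory factor IRF1 had -0.14, the MHC class I transactivator NLRC5 -0.05 and the peptide transporter TAP1 -0.19. With GSK126 IRF1 had -0.70, from 1098 and 1601 counts in B412_mock to 854 and 825 (edgeR unadjusted p = 0.0835, adjusted p = 1).

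Markers of the cells were checked once. The monocytic list summed to 1600 to 6317 CPM per library in MT_mock, 638 to 2062 in B412_mock and 1178 to 4450 in B412_GSK126. Most of each sum was MPO, with 472 to 6023 CPM per library. The receptors CD14 and CSF1R had at most 10 counts in every library. Within the sets MPO differed between the lines by -1.79 and -1.84 and CD68 by -1.68 and -1.65 on the log2 scale. The other tested members differed less: LYZ by -0.42 and -0.17, SPI1 by 0.08 and 0.38, CD33 by 0.39 and -0.09 and ITGAM by 0.26 and -0.02. With GSK126 MPO differed by 1.07 and 1.23, but CD68 by -0.46 and -1.28 and ITGAM by -0.79 and -0.50. LYZ had 0.81 and -0.24 with GSK126, SPI1 0.20 and -0.05 and CD33 -0.01 and -0.01. The B cell list summed to 15.6 to 44.7 CPM in MT_mock, 6.01 to 8.72 in B412_mock and 6.16 to 7.35 in B412_GSK126, mostly CD79A with 74 to 632 counts, while MS4A1 had at most 10. The NK list, through NCAM1 and NKG7, summed to 55.8 to 90.1, 134 to 153 and 191 to 195 CPM in the same order of groups, while KLRD1 had at most 10 counts. The T cell genes CD3D, CD3E and CD3G summed to at most 0.293 CPM, the fibroblast and epithelial list to at most 3.78 and the erythroid list to at most 9.35, with up to 126 counts of HBA1. The part of the monocytic, B cell and NK lists in the differences above was not tested.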

How the data were processed

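Per the labels' protocols, column-extracted total RNA was made into cDNA with a SMART-Seq low-input kit, sheared and built into libraries. These carry no strand mark or molecular identifier, so copies of the same molecule cannot be told apart. The exact binomial intervals of the immunoproteasome share treat every read as independent and may understate counting error. The edgeR intervals include the spread between libraries. The submitters' processing notes name FastQC, Subread, featureCounts and the build hg19. The annotation is not given in the sources used here, nor are versions. What the authors deposited were unnormalized read counts, 1 value per symbol and replicate. CPM here are scaled to the library total.

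Genes passed filterByExpr (minimum count 10, minimum total 15), which kept 13521, all 46 members among them, and left 12843. Counts were scaled by TMM and tested on all 7 libraries with edgeR 4.0.16 under R 4.3.3, using its robust two-sided quasi-likelihood test. P-values were adjusted by Benjamini-Hochberg over the 13521 genes, with a threshold of 0.05. One fit had group means only. The other added the library set, taken by the sign of the first principal component (log2 CPM, prior count 2). The common biological coefficient of variation was 58.3% (4 residual degrees of freedom) and fell to 21.9% (3) with the set, a fall that is partly built in. Differences within sets are of log2 CPM. DESeq2 1.42.0 and limma 3.58.1 (voom) were alternatives. The procedure was tested on simulated data, with results that are not reported here. The simulation took the library sets as known and did not derive them again from the simulated counts. Whether p-values with the term are too small was therefore not tested by it.

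No replicate pair agreed within sampling noise. Members and gene lists were chosen with earlier results of these data known. Named genes were the 6 catalytic genes, PSME1 and PSME2, called members, the 5 with the lowest p in each comparison, the extremes of each role, and, of the pathway, called genes and 6 regulators, not all of which are reported here. Others were named as examples after their values were seen. Exon lengths and shared 50-base words are from GENCODE v29 on GRCh38, a later build than the counts used, so coordinates are given only for RefSeq promoters.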

Additional observations from a re-analysis of the deposited data

How the results depend on the processing

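With the library-set term, the number of proteasome genes called between the lines was 2 with DESeq2, with no filter on low counts and with only the 2 groups compared, and 0 with the replicate block. Leaving out single libraries gave 0 to 2, where a group left with 1 library was assumed to vary like the others. Over all genes these fits called 688, 881, 363 and 0, and 33 to 587 with a library left out, against 318. PSMF1 kept its call in 9 of 14 alternatives and PSME4 gained one in 6. The other comparison and fits gave 0 members under every alternative run. Among those runs DESeq2 called at most 95 of all genes, and fits with no filter on low counts at most 34. No called value changed sign, and scalings moved the median of all genes by at most 0.0492 on the log2 scale.

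The replicate numbers do not pair MT_mock with the B412 groups: deviations of MT_mock replicate 2 correlated with those of B412_mock replicate 2 at -0.634, while replicates 1 correlated at 0.664. In a group of 2 libraries the deviations from the group mean mirror each other. The -0.634 thus only reverses the 0.634 of MT_mock replicate 2 with B412_mock replicate 1. Between the B412 groups, where the number coincides with the library set, same-numbered libraries correlated at 0.847, a value that is the same for both numbers by construction. With the block PSMF1 had -0.23 (edgeR adjusted p = 0.820) and the member median was -0.44. Only MT_mock replicates 1 and 2 inform that fit, since replicate 3 has a block of its own.

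The immunoproteasome share with GSK126 differed by -2.82 to 1.31 percentage points when single libraries were left out, and the PSMB9 to PSMB6 ratio between the lines by -0.30 to 0.66 on the log2 scale, so neither has a stable direction. With 2 libraries in a group and counts of 31 to 121, PSMC1 has the widest standard error of the 46 with the library-set term. Without the term that of PSMG3 is wider.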
